A study of Danio rerio with 6 samples.

Results

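The longest transcript records of the zebrafish (Danio rerio) ventricle were followed in 6 RNA sequencing libraries. These are the 4 records, of 57775 in the deposited tables, with an annotated length over 60000 bases. They are ENSDART00000126871.3 (67298 bases), ENSDART00000109099.4 (78795 bases), ENSDART00000125953.4 (88553 bases) and ENSDART00000193688.1 (82380 bases). The rule that chose them uses length alone, though it was set with earlier results of these data known. The next longest record, of 45657 bases, was nearly silent, with 10.1 estimated counts over all libraries together. There were 3 libraries from fish heterozygous for ttna (ttna+/-), each fish carrying 1 copy of an allele, ttnaA in the labels, with a truncating mutation in exon 201. The other 3 libraries came from their WT siblings. All fish were 6 months old, and a library was made from polyadenylated RNA of 6 pooled ventricles, read as pairs of 50 bases. The pools of a genotype are given as biological replicates, the strain is not given in the labels used here, and heterozygous fish keep an intact copy of ttna in every cell.

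Titin is the giant elastic protein that spans from the Z-disc to the M-line of the sarcomere, where it acts as a spring and as a scaffold for thick filament assembly. Its transcripts are among the longest known in vertebrate striated muscle, and alternative splicing of its I-band and M-band exons gives isoforms that differ in length and stiffness. In humans, truncating variants of TTN are a common genetic cause of dilated cardiomyopathy. The zebrafish genome holds 2 neighbouring titin genes, listed as ttn.1 and ttn.2 in the RefSeq gene table of assembly GRCz12tu, with 0 protein-coding genes between them and with 50 and 30 RefSeq transcripts. The tables name transcripts only by Ensembl transcript ID, and 0 of those 57775 are listed in the available gene tables. The records are therefore titin-length by their annotated length, and neither the targeted gene ttna nor any other gene was assigned to one of them.

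The 4 records lie at 2 places in the order of the tables, separated by 20673 other records. At the first place the 67298-base record and the 78795-base record enclose a record of 23044 bases. At the second place the 88553-base record and the 82380-base record enclose a record of 885 bases, which had 0 counts in all 6 libraries. The order of a table is not a genome position, so it does not show that the records of a place belong to 1 gene.

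Library totals were 40808904 to 44412410 estimated counts in ttna+/- and 28688112 to 34140752 in WT. The gap between annotated and effective length of the members, which depends on the fragment sizes of the library, was 167 to 169.7 bases in ttna+/- and 153 to 161.2 bases in WT. The genotypes did not overlap in either measure, so depth and fragment size cannot be told apart from genotype here. Counting error was small beside the differences between libraries. It was taken as the square root of the count, relative to the count. This was at most 0.845% for the 67298-base and 88553-base records, and at most 5.52% for the 78795-base record. For the 82380-base record it was at most 4.19%, in WT 2, and it was not taken in ttna+/- 2 and WT 3, at or under 3 counts. This error does not cover how reads were divided between records.

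All 4 records together took 0.854%, 0.286% and 1.02% of the estimated counts of ttna+/- libraries 1 to 3, against 0.836%, 0.262% and 0.144% in WT libraries 1 to 3. As CPM, the estimated count per 1000000 counts of the library, the sums were 8536, 2862 and 10166 in ttna+/- and 8363, 2617 and 1440 in WT. The genotypes overlapped: ttna+/- 1, ttna+/- 3 and WT 1 were high, and ttna+/- 2 lay close to WT 2. Group means with their SD over 3 libraries were 7188 ± 3834 CPM for ttna+/- and 4140 ± 3704 CPM for WT, which gave p = 0.2 in a two-sided exact permutation test. The largest value within a genotype was 3.55 times the smallest in ttna+/- and 5.81 times the smallest in WT, while the group means differed by a factor of 1.74. The difference of 3048 CPM was 5211 CPM without ttna+/- 2 and 5159 CPM without WT 1, and it was 1559 CPM without ttna+/- 3 and 1698 CPM without WT 3. With 3 libraries against 3, the exact permutation test cannot give a p under 0.1. The tissue was the whole ventricle, so a different share of muscle cells and a different level of these RNAs per muscle cell cannot be told apart. Nor was either separated from the movement shared with other long records, which is described further below. Muscle markers could not be checked without gene names.

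The 67298-base record was the most abundant member in every library. It had 4668, 2017 and 5478 CPM in ttna+/- libraries 1 to 3 and 5394, 1876 and 1001 CPM in WT libraries 1 to 3. The highest WT library stood close to the highest ttna+/- library, and WT 3 was lowest of all 6. Ranked by estimated counts it stood between place 16 (WT 1) and place 114 (WT 3) among all records of its library. Per length the same record was far less prominent. It had 71.6, 28.5 and 85.0 TPM, a length-corrected relative abundance, in ttna+/-, against 83.4, 26.3 and 14.2 TPM in WT, and its rank by TPM was between 812 and 3505. A record this long draws many reads from comparatively few molecules.

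The 88553-base record, the longest of the tables, was the second most abundant member. It had 2302, 823 and 2997 CPM in ttna+/- libraries 1 to 3, against 1766, 694 and 429 CPM in WT libraries 1 to 3. Here too the groups overlapped, since ttna+/- 2 lay below WT 1. Per length the values were 26.8, 8.84 and 35.3 TPM in ttna+/- and 20.7, 7.38 and 4.61 TPM in WT.

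The 82380-base record was abundant in some libraries of each genotype and at or near 0 in others. It had 1525 and 1622 CPM in ttna+/- 1 and ttna+/- 3, but 0.0903 of a count in ttna+/- 2. In WT it had 1161 CPM in WT 1, 16.7 CPM in WT 2 and 0 counts in WT 3. A count of 0 allows up to 3 counts, which is 0.0735 CPM in ttna+/- 2 and 0.0918 CPM in WT 3, for counting error only. The level of this record did not separate the genotypes: each had a library with over 1000 CPM and a library at or under that limit. In the libraries where it was high it stood at 19.1 TPM (ttna+/- 1), 20.6 TPM (ttna+/- 3) and 14.7 TPM (WT 1).

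The 78795-base record was a minor member. It had 41.1, 22.4 and 68.8 CPM in ttna+/- libraries 1 to 3, against 41.5, 30.4 and 10.04 CPM in WT libraries 1 to 3. Its level was under 1 TPM in all 6 libraries, with 0.911 TPM as its highest value, in ttna+/- 3. By TPM the order of the members was the same in ttna+/- 1, ttna+/- 3 and WT 1, with the 67298-base record first, then the 88553-base, 82380-base and 78795-base records. In ttna+/- 2, WT 2 and WT 3 the 82380-base record came last.

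**Figure D1:**
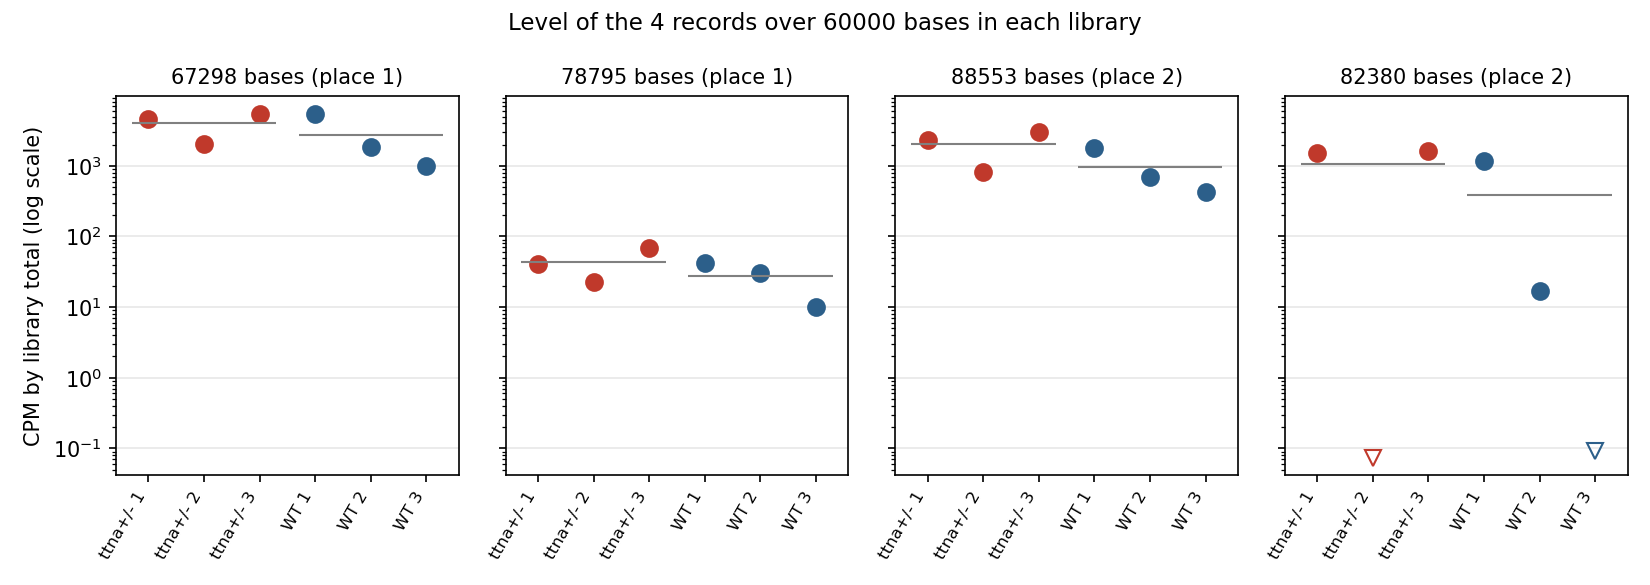
CPM of each of the 4 records (log scale) in ttna+/- libraries 1 to 3 (red) and WT libraries 1 to 3 (blue); horizontal lines are group means, and open triangles mark libraries at or under 3 counts, drawn at 3 counts. In each panel the genotypes overlap, and the 82380-base record is at 1161 CPM or more in ttna+/- 1, ttna+/- 3 and WT 1 and far lower in the other libraries.

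Across all records, the comparison of ttna+/- with WT asks which transcripts differ when 1 copy of ttna is truncated. With the quasi-likelihood test of edgeR, 0 of the 4 members passed the threshold of the series' design text (more than 2-fold, adjusted p under 0.05), beside 0% of the 29950 records tested. At an unadjusted p under 0.05 it gave 0 of the 4 members, beside 10.6% of all records. DESeq2 called 0 of the 4, beside 1.29% of the 33914 records to which it gave an adjusted p, and limma called 0 of the 4 on log2(TPM + 1) and on log2(TPM + 0.1), beside 0.00334% and 0.0267% of the records. Limma-voom also called 0 of the 4 members and 0 of 29950 records. At an unadjusted p under 0.05 DESeq2 gave 1 of the 4, the 88553-base record, beside 8.37% of records. The CPM ranges of the genotypes failed to overlap for 0 of the 4 members and for 20.3% of all records tested.

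All 4 members had a positive log2 fold change (ttna+/- over WT), as did 50.7% of all records tested. Among the records of 12000 to 60000 bases, 93 of the 133 tested had a positive value too. The 67298-base record had a log2 fold change of 0.67 ± 0.66 (SE), with a 95% interval from -0.93 to 2.27 and an edgeR adjusted p of 0.708. For the 88553-base record the log2 fold change was 1.198 ± 0.651 (SE), with an interval from -0.39 to 2.78 and an edgeR adjusted p of 0.544. Both intervals hold values below 0 and values above a 4-fold rise in ttna+/-. The 78795-base record stood at 0.80 ± 0.61 on the same log2 scale, with an edgeR adjusted p of 0.636. For the 82380-base record, a value of 1.57 ± 2.97 came with an interval from -5.66 to 8.80, and this fitted value depends on how libraries at or near 0 are treated.

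The sum over a place does not depend on how reads were divided between its own records, though whether these records share sequence, with each other or across places, was not tested. When the records of a place were replaced by their sum in the edgeR test, the first place had a log2 fold change of 0.67 ± 0.66 (SE; adjusted p = 0.707), and the second place one of 1.31 ± 0.88 (SE; adjusted p = 0.602). Summing all 4 gave 0.91 ± 0.73 (SE; adjusted p = 0.652), a setting added after the data had been seen. None of the sums passed the threshold. Without WT 1 the log2 fold change was 1.53 at the first place and 2.48 at the second (unadjusted p = 0.0333 and 0.025, edgeR adjusted p = 0.394 and 0.392). Without WT 3 it was 0.28 and 0.89, without ttna+/- 3 it was 0.36 and 0.85, and without WT 2 it was 0.49 and 1.03. Without ttna+/- 2 it was 0.99 and 1.76, and without ttna+/- 1 it was 0.63 and 1.20. Apart from the fit without WT 1, the edgeR unadjusted p was 0.192 to 0.658 at the first place. At the second place it was 0.0739 to 0.421. With all 6 libraries the edgeR unadjusted p was 0.343 and 0.187. In the edgeR fit of single records with all 6 libraries, 10.6% of all records had an unadjusted p under 0.05. This share was not taken for the fits with a library left out.

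The size of these values moved with single libraries, while the sign stayed positive whichever library was left out. Without WT 1, the one WT library with high values, the log2 fold change was 1.54 for the 67298-base record (unadjusted p = 0.0327, edgeR adjusted p = 0.394) and 1.91 for the 88553-base record (unadjusted p = 0.0249, edgeR adjusted p = 0.393). Without WT 3, the lowest library, the values were 0.28 and 0.85, and without ttna+/- 3 they were 0.36 and 0.77. Without ttna+/- 2, the low ttna+/- library, they were 0.99 and 1.57, the latter with an unadjusted p of 0.0399 and an edgeR adjusted p of 0.282. Without ttna+/- 1 they were 0.63 and 1.17, and without WT 2 they were 0.48 and 1.04. In its other fits with a library left out, the 67298-base record had an edgeR unadjusted p of 0.194 to 0.661. The 88553-base record had 0.187 to 0.311 in its other such fits. With all 6 libraries the edgeR unadjusted p of these records was 0.345 and 0.114. The share of all records at an unadjusted p under 0.05 was not taken for the fits with a library left out. The 82380-base record moved furthest, to 6.99 without WT 1 and to 0.98 without WT 3.

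**Figure D2:**
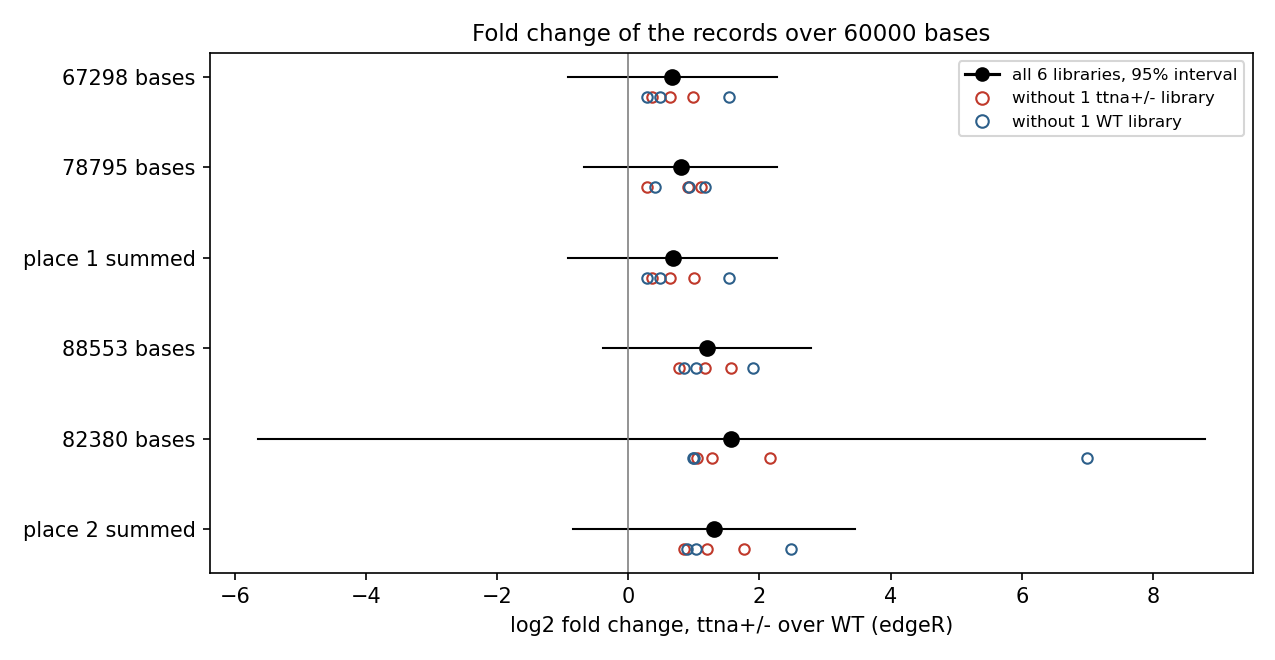
Log2 fold change (ttna+/- over WT, edgeR) of each record and of the sum at each place, with its 95% interval in black and, below it, the value when 1 ttna+/- library (red circles) or 1 WT library (blue circles) is left out. All intervals from the 6 libraries span 0, and the 82380-base record has by far the widest, from -5.66 to 8.80.

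Within the first place 1 record held nearly all counts. The 67298-base record took 99.1%, 98.9% and 98.8% of the counts of this place in ttna+/- libraries 1 to 3, against 99.2%, 98.4% and 99.0% in WT libraries 1 to 3. The 78795-base record held the remainder, on average 1.07% ± 0.19 (SD) over the 3 ttna+/- libraries and 1.12% ± 0.43 (SD) over the 3 WT libraries, with a two-sided exact permutation p of 0.9. By TPM its share was 0.915% ± 0.159 (SD) over the 3 ttna+/- libraries and 0.955% ± 0.366 (SD) over the 3 WT libraries. The summed level of this place varied more than 5-fold over the 6 libraries, from 1012 CPM in WT 3 to 5547 CPM in ttna+/- 3, while the minor share lay between 0.764% (WT 1) and 1.59% (WT 2). The direction of the small difference in share was not stable, and it reversed without ttna+/- 1 and without WT 2.

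Within the second place the composition differed widely between libraries of the same genotype. The 88553-base record took 60.1%, 99.9997% and 64.9% of the counts of this place in ttna+/- libraries 1 to 3, against 60.3%, 97.7% and 100% in WT libraries 1 to 3. The 82380-base record made up 39.9% in ttna+/- 1 and 35.1% in ttna+/- 3, and 39.7% in WT 1. Its share in WT 2 was 2.34%. Where it was at or under 3 counts, in ttna+/- 2 and WT 3, 3 counts would be a share of 0.00894% and of 0.0214%. The mean share of the 82380-base record was 24.99% ± 21.8 (SD) over the 3 ttna+/- libraries and 14.0% ± 22.3 (SD) over the 3 WT libraries, with a two-sided exact permutation p of 0.7. The difference of 10.99 percentage points depended on single libraries. It was 23.8 points without WT 1 (24.99% in ttna+/- and 1.17% in WT) and 23.5 points without ttna+/- 2, but 3.56 points without ttna+/- 1, 5.92 points without ttna+/- 3, 5.16 points without WT 2 and 3.99 points without WT 3.

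Where the 82380-base record was high, its level relative to the 88553-base record lay in a narrow range. In counts per kilobase of annotated length the ratio was 0.712 in ttna+/- 1, 0.582 in ttna+/- 3 and 0.707 in WT 1. In WT 2 it was 0.0258. The 3 libraries with a high share were also those with the highest summed level at the second place, at 3827 (ttna+/- 1), 4619 (ttna+/- 3) and 2927 CPM (WT 1), against 823 CPM in ttna+/- 2, 710 CPM in WT 2 and 429 CPM in WT 3. The 88553-base record on its own also parted these libraries, with 1766 CPM or more in the same 3 and 823 CPM or less in the others. How the program that made the tables divided reads between these records was not tested, because the tables hold no reads and no measure of that uncertainty.

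The ratio between the places was compared as the counts per kilobase of the first place over those of the second. It was 1.57, 3.26 and 1.54 in ttna+/- libraries 1 to 3, against 2.37, 3.52 and 3.10 in WT libraries 1 to 3. The first place was thus higher per length in every library, and ttna+/- 1 and ttna+/- 3 had the lowest ratios. The groups overlapped through ttna+/- 2, which lay above WT 1 and WT 3. The mean log2 ratio was 0.99 ± 0.62 (SD) over the 3 ttna+/- libraries and 1.56 ± 0.29 (SD) over the 3 WT libraries, a difference of -0.57 (exact permutation test, two-sided p = 0.3). Without ttna+/- 2 the difference was -0.93, and without ttna+/- 3 it was -0.39. As a share, the first place held 66.1% ± 9.06 of the counts per kilobase of both places (SD) over the 3 ttna+/- libraries and 74.6% ± 3.87 (SD) over the 3 WT libraries.

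The sum at the second place includes the 82380-base record only where it had counts. With the leading record of each place alone, a comparison added after the data had been seen, the 67298-base record over the 88553-base record gave 2.67, 3.23 and 2.41 in ttna+/- and 4.02, 3.56 and 3.07 in WT. WT 1 moved from the lowest WT value to the highest. This form leaves out the 82380-base record, which held 39.9%, 35.1% and 39.7% of the second place's counts in ttna+/- 1, ttna+/- 3 and WT 1. In WT 2 it held 2.34%, and in ttna+/- 2 and WT 3 it was at or near 0. Whether reads were divided between these records alike in every library was not tested, so the leading-record ratios may not be comparable between libraries. Both ttna+/- libraries with a high 82380-base record stayed lowest, and the groups overlapped only through ttna+/- 2 (3.23) and WT 3 (3.07). The mean was 2.77 ± 0.42 (SD) over the 3 ttna+/- libraries and 3.55 ± 0.47 (SD) over the 3 WT libraries; on the log2 scale the difference was -0.36 (exact permutation test, two-sided p = 0.2).

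**Figure D3:**
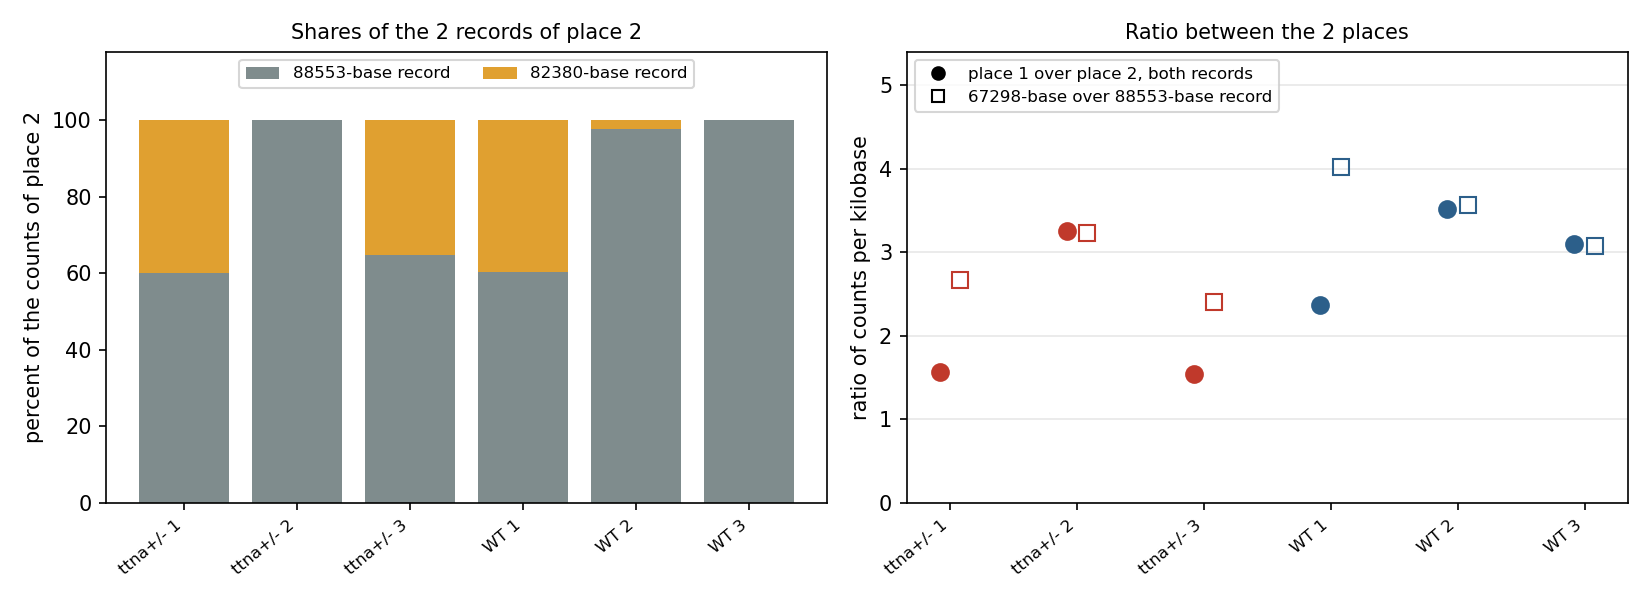
Left, percent of the counts of the second place taken by the 88553-base (grey) and 82380-base (orange) records in each library; right, the ratio of counts per kilobase between the places, for both records of each place (filled circles) and for the leading records alone (open squares), in ttna+/- (red) and WT (blue). The 82380-base record holds 35.1% to 39.9% in ttna+/- 1, ttna+/- 3 and WT 1, and the ratio overlaps between genotypes in either form.

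The members moved together over the libraries. Over the 6 libraries, Pearson's r between log2(CPM + 0.5) of a record and the log2 summed CPM of all 4 was 0.99 for the 67298-base record, 0.99 for the 88553-base record, 0.94 for the 82380-base record and 0.92 for the 78795-base record. Each member is part of that sum, and the libraries differ in depth and fragment size, so these are descriptions only. Spread was large for such abundant records. The SD of log2(CPM + 0.5) over the 6 libraries was 1.01 for the 67298-base record, which 93.3% of the 12347 records with a mean of at least 5 CPM did not reach, and 1.10 for the 88553-base record, which 94.6% did not reach.

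Other long records moved in the same libraries. The 204 records over 12000 and up to 60000 bases summed to 8959, 4817 and 8847 CPM in ttna+/- libraries 1 to 3, against 8081, 5193 and 3987 CPM in WT libraries 1 to 3. In this class too, ttna+/- 1, ttna+/- 3 and WT 1 were highest. Of these records 133 could be tested, and edgeR called 0 of them. At an unadjusted p under 0.05 it gave 11 of the 133, 8 of them higher in ttna+/-, beside 10.6% of all records tested, where 1432 of 3178 were higher. Their median log2 fold change was 0.36, against 0.01 over all records tested and 1.00 over the 4 members. The part of this movement with length in the members' values was not tested.

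Over the 6 libraries, the spread of the class medians was smallest for records of 2000 to 4000 bases and widened with length above that. Among records of at least 5 CPM, the median of log2(CPM + 0.5) minus its mean over the libraries, lay between -0.26 (ttna+/- 3) and 0.14 (WT 3) for those of up to 500 bases and between -0.09 (ttna+/- 3) and 0.14 (WT 1) for those of 2000 to 4000 bases. For the 89 such records of 12000 to 60000 bases it lay at 0.35, -0.48 and 0.29 in ttna+/- 1 to 3, against 0.40, -0.23 and -0.52 in WT 1 to 3. For the 4 members it lay at 0.83, -0.52 and 1.24 in ttna+/-, against 0.74, -0.69 and -1.53 in WT. The sign was the same as in the next class in every library, and the size was larger, most of all in ttna+/- 3 and WT 3.

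Set against the next class in the same library, the members still varied. Their summed CPM was 0.953, 0.594 and 1.15 times that of the 12000 to 60000 base records in ttna+/- libraries 1 to 3, and 1.03, 0.504 and 0.361 times in WT libraries 1 to 3. The mean of this ratio was 0.899 ± 0.281 (SD) over the 3 ttna+/- libraries and 0.633 ± 0.355 (SD) over the 3 WT libraries, with a two-sided exact permutation p of 0.3, so relative to other long records the genotypes overlapped as well. This scale was added after the data had been seen.

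**Figure D4:**
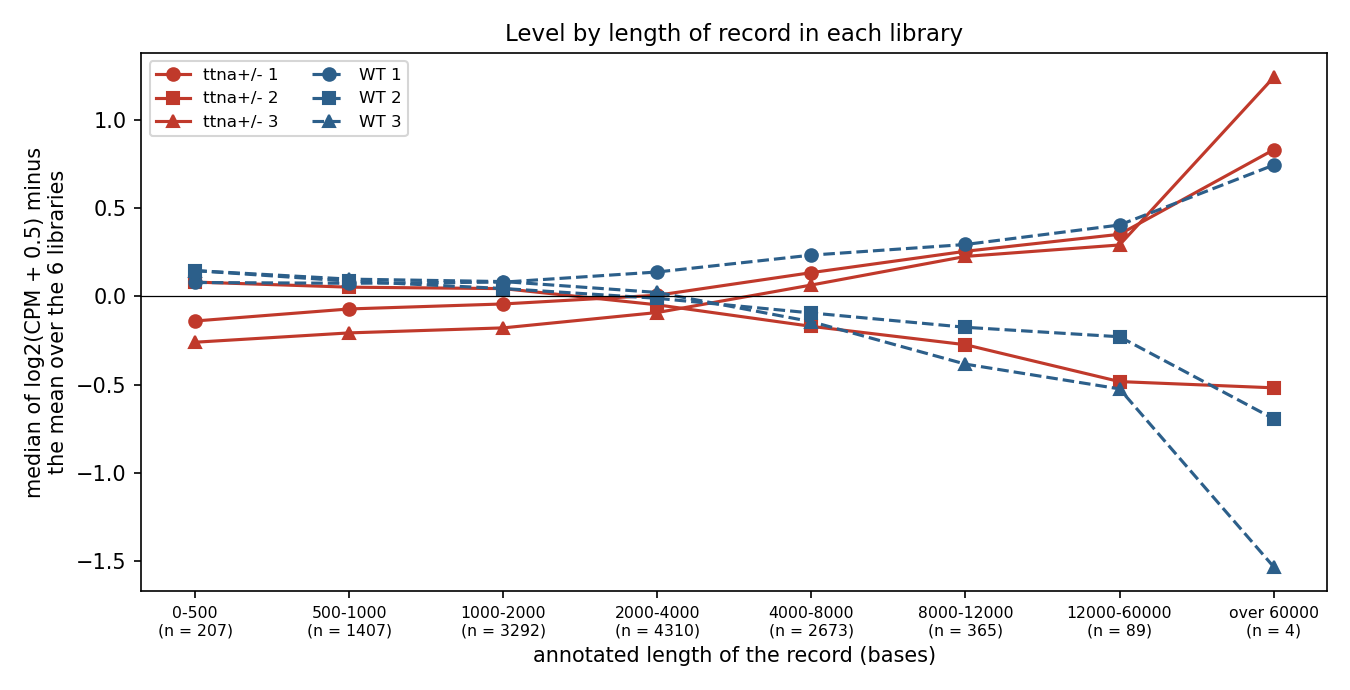
Median difference of log2(CPM + 0.5) from the mean over the 6 libraries, for records grouped by annotated length, in ttna+/- (red, solid lines) and WT libraries (blue, dashed lines); n is the number of records with a mean of at least 5 CPM. ttna+/- 1, ttna+/- 3 and WT 1 lie above 0 and the others below 0 in all classes over 4000 bases, and the 4 records over 60000 bases spread furthest, from -1.53 in WT 3 to 1.24 in ttna+/- 3.

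The record of 23044 bases that lies between the members of the first place, ENSDART00000059460.6, varied less than they did. It had 54.2, 44.9 and 91.7 CPM in ttna+/- libraries 1 to 3, against 73.2, 58.5 and 35.4 CPM in WT libraries 1 to 3. Its highest library was 2.59 times its lowest, against 5.47 times for the 67298-base record and 6.85 times for the 78795-base record. Its log2 fold change was 0.29 ± 0.38 (SE; edgeR adjusted p = 0.775).

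The records whose pattern over the 6 libraries was most like the members' sum were much shorter. ENSDART00000135230.2, of 10963 bases, had 35.1, 12.9 and 41.6 CPM in ttna+/- libraries 1 to 3 and 35.7, 12.6 and 7.19 CPM in WT libraries 1 to 3. ENSDART00000097328.5, of 2020 bases, had 37.4, 21.5 and 40.6 CPM in ttna+/- and 40.3, 21.6 and 15.4 CPM in WT. Both were selected as the highest Pearson's r with the log2 summed CPM of the members over 6 libraries, among 12347 records. An r over 0.9 was reached by 971 of these records, 7.86%, members included. In the length classes of the 2 named records, the share was 26.0% (8000 to 12000 bases) and 6.38% (2000 to 4000 bases). The share was 36.0% among records of 12000 to 60000 bases and 2.49% among those of 1000 to 2000 bases.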

How the data were processed

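Each of the 6 libraries has 1 table with annotated length, effective length, estimated counts and TPM per transcript. Per the file headers the columns follow the layout of kallisto; neither the program nor its annotation is given in the sources used here. Builds GRCz11 and Zv9, and the tools Cuffdiff, Cufflinks 2.2.1 and TopHat2 2.1.1, appear without roles per the submitters' processing notes. The deposited estimated counts were not scaled between libraries. The TPM values deposited by the authors equal count over effective length, rescaled to 1000000 per library, to a largest relative difference of 9.8e-06.

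Members and lists were chosen with earlier results of these data known. Members, places (no more than 5 rows apart in the table), shares and ratios came from unrounded estimated counts. For the test across all records, counts were rounded and fitted with edgeR 4.0.16 (R 4.3.3; TMM factors, filterByExpr, minimum count 10, robust quasi-likelihood fit, genotype as the only term) on all 6 libraries, with Benjamini-Hochberg adjustment over the 29950 records that passed, among them all 4 members. SE is the log2 fold change over the square root of F. Alternatives used DESeq2 1.42.0 and limma 3.58.1. Two-sided exact permutation tests (scipy 1.17.1), with p not adjusted, compared 3 summed levels, 1 ratio and 4 shares, and 2 further ratios added after the data had been seen. The edgeR test was tried on simulated counts. Besides the members, the 2 records most correlated with their sum were named, by rule; no sequence was available to print.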

Additional observations from a re-analysis of the deposited data

How the results depend on the processing

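The fold changes of the 4 records (14 settings each) and of both place sums (6 settings each) all kept their direction and stayed short of the threshold. The number of the 4 records called, read from the same fits, stayed at 0. The summed levels, the ratio and the shares were recomputed 74 times. Exact permutation tests cannot reach 0.05 at this size, so only the direction can be read: 70 kept it and 4, all shares within the first place, reversed. Using the replicate number as a block changed only p here, so the direction was kept by construction. Both shares of a place mirror each other, so each share result, kept or reversed, is counted for both records. The count of 70 is therefore no measure of stability. Leaving out each library moved the difference in summed CPM between 1559 and 5211 for all 4 records, 427.3 and 2639 for the first place and 969.4 and 2868 for the second, and that in the log2 ratio between -0.93 and -0.39. It moved the difference (ttna+/- minus WT) in the share of the 67298-base record between -0.192 and 0.222 percentage points, and that of the 78795-base record between -0.222 and 0.192, with the sign reversed without ttna+/- 1 (-0.0529 and 0.0529) and without WT 2 (-0.192 and 0.192). Over 14 settings, from edgeR, DESeq2 or limma, the log2 fold change ranged from 0.28 to 1.54 for the 67298-base record (adjusted p 0.394 to 0.943). It ranged from 0.22 to 1.18 for the 78795-base record (adjusted p 0.41 to 0.943). The 0.22 came from limma on log2(TPM + 1), a scale that shrinks differences between values under 1 TPM, and log2(TPM + 0.1) gave 0.62. The range was 0.77 to 1.91 for the 88553-base record (adjusted p 0.282 to 0.87) and 0.54 to 6.99 for the 82380-base record (adjusted p 0.476 to 0.968). With the replicate number as a block, edgeR gave log2 fold changes of 0.81, 0.77, 1.17 and 0.54 for the 67298, 78795, 88553 and 82380-base records. It called 0 of the 4, and 0 of all 29950 records tested. The numbers are those of the titles, and they are not stated to pair the libraries. Deviations of same-numbered libraries correlated across records at 0.538, 0.435 and -0.379. For ttna+/- 1 and ttna+/- 2 the same-numbered WT library correlated best, with 0.362 for ttna+/- 2 and WT 3. By contrast, ttna+/- 3 correlated best with WT 1 (0.554). These correlations do not settle whether the libraries are paired. The names of the WT tables carry numbers 1 higher, which gives a correlation of -0.675 for ttna+/- 2 and WT 1 and of -0.279 for ttna+/- 3 and WT 2; no fit was made with those numbers. With 3 libraries per genotype and this spread, intervals of the fold changes are wide.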

Other observations

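Among the records nearest to the members in the tables, ENSDART00000186969.1, of 3086 bases, 5 rows after the 78795-base record, was singled out after its values had been seen. It was at 0 counts in all 3 ttna+/- libraries, against 6.23, 13.1 and 7.66 CPM in WT libraries 1 to 3. The groups did not overlap, as for 20.3% of all records tested. Its edgeR log2 fold change was -11.35, a fitted value that rests on 0 counts in ttna+/-. The adjusted p was 0.163 with edgeR, 6.8e-14 with DESeq2 and 0.307 with limma-voom, so the call depended on the program. No record of the 29950 tested had an edgeR adjusted p under 0.163. Nothing in the tables ties this record to the members.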
